A study of Homo sapiens with 12 samples.

Results

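Heat shock proteins and the co-chaperones that work with them were followed in HepG2, an immortal line derived from a human liver tumour, during exposure to the phenoxy herbicide 2,4-D. The group holds 42 gene symbols, chosen by name, which match 43 of the 60612 rows of the count table because HSPA14 has 2 rows. Of these rows, 42 passed the filter on low counts and were tested among 17779 genes, while HSPB8 (0.0435 to 0.247 CPM, counts scaled by library size) did not. The cells of 3 biological replicates each were exposed to 0.001 µM 2,4-D for 10, 30 or 360 min, and 3 libraries of untreated cells stood for 0 min. Whether the replicates came from separate cultures is not stated beyond the word biological, so p-values measure the spread between these libraries. Untreated cells collected at 10, 30 or 360 min were not analysed here, so exposure and elapsed time cannot be told apart in any comparison. HSPA9, HSPD1 and HSPE1 encode chaperones of the mitochondrial matrix, so the group is not purely cytosolic.

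Molecular chaperones keep proteins folded. HSP70 binds exposed hydrophobic stretches of its clients in a cycle driven by ATP, J-domain proteins deliver clients and start hydrolysis, and HSP110 and BAG proteins release the nucleotide again. HSP90 finishes the folding of kinases, steroid receptors and other clients with the help of co-chaperones. In unstressed cells the transcription factor HSF1 is held inactive by chaperones. When unfolded proteins accumulate it forms trimers, binds heat shock elements in promoters and raises transcription of the inducible chaperone genes.

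The untreated cells expressed the group at high levels, with 1.46% to 1.56% of all counts. This share was 1.44% to 1.46% at 10 min, 1.43% to 1.46% at 30 min and 1.66% to 1.73% at 360 min. The libraries at 360 min thus lay above all others; in bulk RNA a larger share of cells expressing a gene and more RNA per cell cannot be told apart. Per kilobase of exon, the constitutive HSP90 gene HSP90AB1 was highest in untreated cells with a median of 1220 CPM per kb, followed by the mitochondrial chaperonin gene HSPD1 (678 CPM per kb) and the constitutive HSP70 gene HSPA8 (398 CPM per kb). The inducible HSP70 genes HSPA1A and HSPA1B stood at 76.9 and 80.1 CPM per kb. At the other end HSPA1L, HSPA2, CRYAB, HSPB8, DNAJA4 and DNAJB5 had medians of 0.653 CPM per kb or less, so that changes of the size seen in the abundant genes were hard to detect in them.

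Short stretches of promoter sequence show heat shock elements before a RefSeq start of some genes of the group. Only genes with an element are printed, and the windows of HSPH1 and BAG3 held none. An element is built of repeats of GAA and its reverse complement TTC in alternating orientation. The 250 bases before each start were searched in RefSeq promoter windows (build GRCh38.p14), which were found for 36 of the 42 symbols. A 2-unit element was counted where the window held GAANNTTC or TTCNNGAA, with N for any base. A 3-unit element was counted where such a pair was continued by NN and a further unit in the alternate orientation. Each 2-unit form is its own reverse complement and the 3-unit forms are each other's, so both strands are covered, and every 3-unit element also holds a 2-unit one. The sequences are written 5′ to 3′ on the strand of the gene, with the elements in capitals. They lie in order at chr6:31815417-31815463 (plus strand), chr6:31827613-31827660 (plus), chr11:123062171-123062199 (minus), chr6:44247758-44247810 (plus), chr14:102087112-102087140 (minus), chr11:90223084-90223112 (minus), chr19:14518447-14518494 (minus), chr1:78004821-78004853 (plus) and chr7:76302471-76302518 (plus).
HSPA1A: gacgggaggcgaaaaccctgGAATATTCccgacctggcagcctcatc
HSPA1B: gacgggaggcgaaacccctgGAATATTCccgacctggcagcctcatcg
HSPA8: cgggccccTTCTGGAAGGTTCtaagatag
HSP90AB1: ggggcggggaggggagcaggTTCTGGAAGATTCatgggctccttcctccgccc
HSP90AA1: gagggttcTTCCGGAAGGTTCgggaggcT
CHORDC1: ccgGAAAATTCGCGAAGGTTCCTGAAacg
DNAJB1: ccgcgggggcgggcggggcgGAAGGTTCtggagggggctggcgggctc
DNAJB4: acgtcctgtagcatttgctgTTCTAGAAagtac
HSPB1: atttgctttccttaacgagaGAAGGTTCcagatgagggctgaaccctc

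In the HSP90AA1 stretch the last capital is the first base of a further 2-unit element. The stretch of HSPA1A also lies before HSPA1L, which is transcribed in the opposite direction. All 29 bases printed for HSPA8, HSP90AA1 and CHORDC1 lie within GENCODE 29 exons of the same gene, so they do not precede every annotated start. HSP90AA1, HSP90AB1, DNAJB1 and DNAJB4 have further RefSeq windows that hold no element. Windows with a 3-unit element were found for CHORDC1, DNAJB6, HSP90AA1, HSP90AB1, HSPA8 and HSPD1. They made up 6 of the 53 windows of the group (11.3%), against 0.441% of all 35116 promoter windows. A 2-unit element stood in 17 of the 53 windows (32.1%) and in 11.6% of all windows. The windows of the group also held the GC box (GGGCGG or CCGCCC) more often, in 79.2% against 42.6%, and the shares of elements were not adjusted for base composition. A CCAAT box (CCAAT or ATTGG) stood in 30.2% of the group's windows and 32% of all. These matches describe letters only and say nothing of binding.

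**Figure D1:**
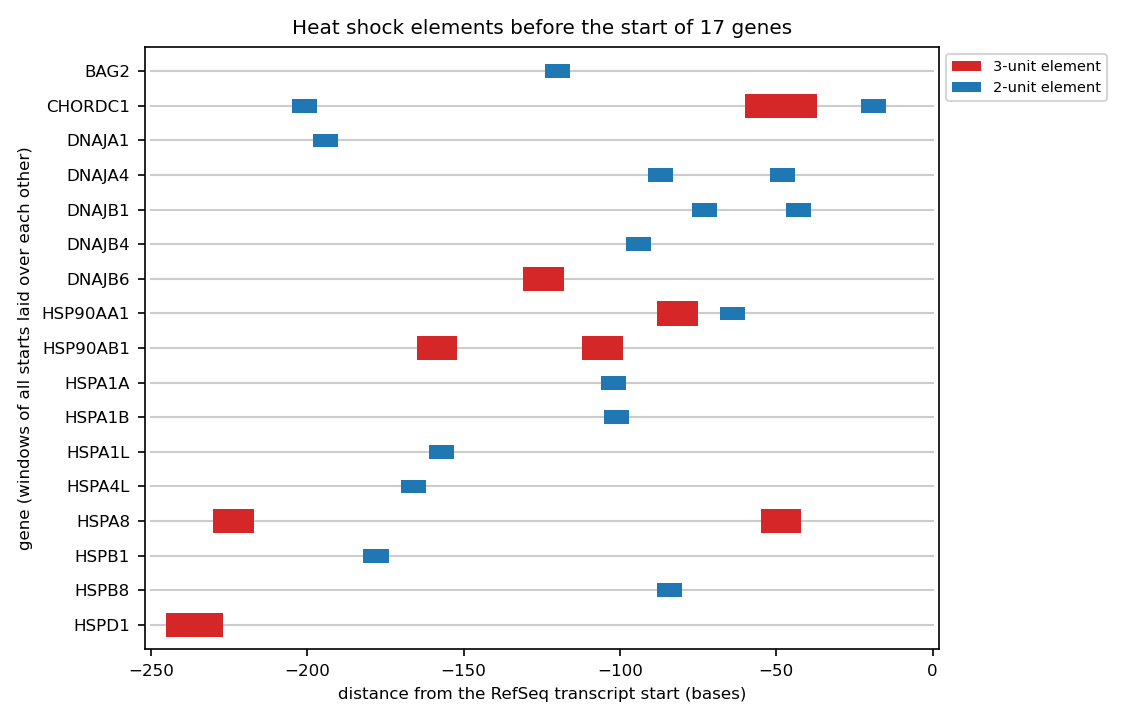
Positions of heat shock elements in the 250 bases before the RefSeq transcript start of the 17 genes that have any (x axis, bases from the start; all starts of a gene are laid over each other). Red bars are 3-unit and blue bars 2-unit elements; 6 genes hold a 3-unit element.

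The libraries differed in ways that the groups do not explain, and these touch the comparisons with 0 min. Total counts ran from 29766148 to 83539763. The share of mitochondrial counts was 3.55% to 4.39% in 7 libraries (0 min replicate 1, all of 10 min, 30 min replicates 2 and 3, 360 min replicate 3) and 2.52% to 2.74% in the other 5. Within the untreated group, replicate 1 had the immediate early gene FOS at 14.1 CPM where replicates 2 and 3 had 106 and 136 CPM. It was also the lowest of the untreated libraries for 33 of the 42 tested rows (78.6%), against 38.9% of all genes tested. The 8 hepatocyte marker genes summed to 28200 to 32600 CPM. All 4 fibroblast markers together reached at most 0.161 CPM, PTPRC was at 0 in every library, the endothelial markers summed to 1.29 to 2.21 CPM, and the leukocyte sum of 1740 to 1960 CPM was carried by LYZ. The part of the mitochondrial share and of the FOS difference in the results below was not tested beyond the settings named there. Counts of calls in those settings are given without the share of all genes called in the same setting.

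At 10 min no gene of the group passed the test. Of the 42 tested rows, 0 were called by edgeR's quasi-likelihood test at an adjusted p under 0.05, against 0.0169% of all genes (0.00562% lower). An unadjusted p under 0.05 was found for 8 rows, and DESeq2 called 2, HSPA1A and HSPA1B. The share of all genes with an unadjusted p under 0.05 was not counted, here or in the comparisons below. The libraries of 7 rows did not overlap with those at 0 min, against 15.5% of all genes. The fitted difference lay below 0 in 33 rows (78.6%; 51.1% of all genes), with a median log2 fold change of -0.04 against 0 over all genes. Leaving out 0 min replicate 1 gave 2 calls, and using it alone as the untreated group gave 0.

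At 30 min 4 of the 42 rows fell and 0 rose, 9.52% of the rows against 0.765% of all genes called in either direction and 0.585% called lower. They were HSPA1A and HSPA1B, HSPH1, which encodes the inducible HSP110, and BAG3, which links HSP70 to selective autophagy. Reads of HSPA1A and HSPA1B cannot be told apart with certainty, so their calls are not independent of each other. A further 9 rows had an unadjusted p under 0.05, which makes 13 in all. The libraries of 16 rows did not overlap with those at 0 min (14.5% of all genes), and 34 rows lay below 0 (81% against 48.5% of all genes). The median log2 fold change was -0.06, against 0 over all genes. Leaving out 0 min replicate 1 gave 7 calls, leaving out 0 min replicate 3 or 30 min replicate 1 gave 2, and 0 min replicate 1 alone as the untreated group also gave 2, namely HSPA1A and HSPA1B.

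At 360 min 18 of the 42 rows rose and 2 fell. The share called was 47.6%, against 18.1% of all genes (8.89% higher and 9.19% lower). The inducible HSP70 genes, HSPA8, HSPH1, both HSP90 genes, BAG3 and 6 J-domain genes were among those that rose. The 18 rows lay 7.45% to 51.3% above 0 min. The genes that fell were HSPB1, the small heat shock protein HSP27, and HSF1 itself. The libraries of 30 rows did not overlap with those at 0 min, against 35.6% of all genes, and 26 rows had an unadjusted p under 0.05. The median log2 fold change was 0.12, against 0 over all genes. Leaving out any library of these groups left 14 to 19 called.

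**Figure D2:**
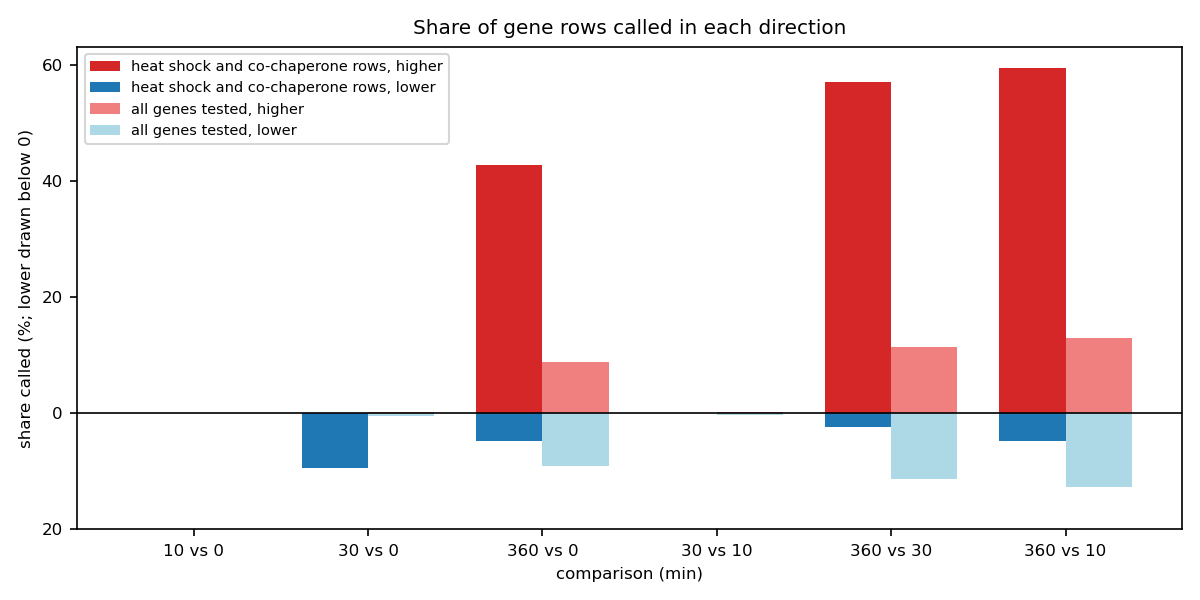
Share of the 42 tested rows and of all 17779 genes called higher (above 0) and lower (below 0) in each comparison of exposure times (y axis, percent; x axis, times in min). At 360 min 18 of 42 rows were higher and 2 lower, against 8.89% and 9.19% of all genes.

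In the direct comparison of 360 with 30 min the untreated libraries entered only the filter, the scaling and the estimate of the spread. It showed 24 rows higher and 1 lower, 59.5% against 22.7% of all genes. The libraries did not overlap in 30 rows (39.8% of all genes). Against 10 min, 25 rows were higher and 2 lower, 64.3% against 25.6% of all genes, and 32 rows did not overlap (41% of all genes). Without 10 min replicate 3 the number of called rows was 17. Between 10 and 30 min 0 rows were called (0.574% of all genes; 0.411% lower), 9 had an unadjusted p under 0.05, 13 did not overlap (17.4% of all genes) and DESeq2 called 3. A test over all 4 times called 24 of the 42 rows, against 22.6% of all genes. The mean CPM was highest at 360 min in 34 of the 42 rows, against 6404 of all 17779 genes tested. It was lowest at 30 min in 23 rows, against 3606 of all genes tested. Both held in 21 rows (50%, against 11.8% of all genes tested).

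**Figure D3:**
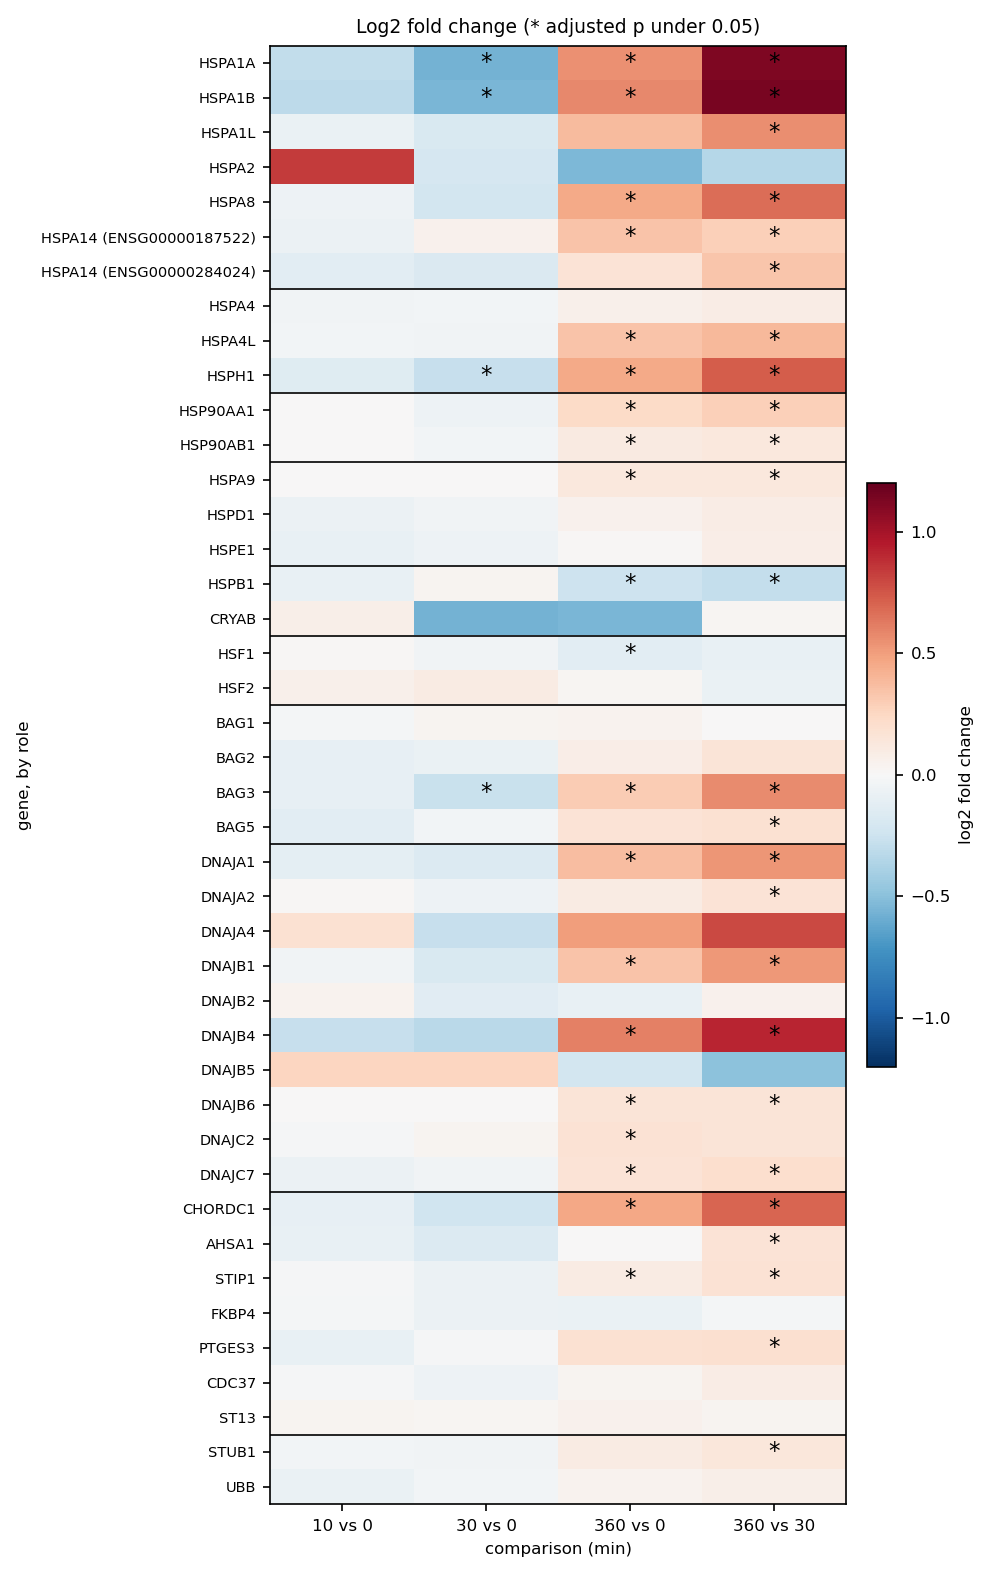
Log2 fold change of the 42 tested rows (rows, grouped by role between the horizontal lines) in 4 comparisons of exposure times (columns, min); blue is lower, red is higher and an asterisk marks an adjusted p under 0.05. The column of 30 against 0 min holds 4 asterisks, all on blue fields, and that of 360 against 0 min holds 20.

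The inducible HSP70 genes moved furthest among the abundant genes. HSPA1A (chr6:31815464-31817946) stood at 163, 191 and 201 CPM at 0 min, 148, 149 and 154 after 10 min, 130, 119 and 126 after 30 min, and 286, 268 and 258 after 360 min. The values at 10 and 30 min all lay below the untreated ones, those at 360 min all above. The log2 fold change was -0.30 (SE 0.07, adjusted p = 0.14) at 10 min, -0.57 (SE 0.06, adjusted p = 0.00092) at 30 min and 0.55 (SE 0.06, adjusted p = 9.9e-05) at 360 min, all by edgeR. From 30 to 360 min it rose 2.17-fold.

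HSPA1B (chr6:31827735-31830255) stood at 176, 202 and 211 CPM at 0 min, 155, 157 and 163 after 10 min, 137, 129 and 137 after 30 min, and 315, 293 and 275 after 360 min. The order of the groups was that of HSPA1A, again without overlap with 0 min. Its log2 fold change was -0.55 (SE 0.06, adjusted p = 0.00089) at 30 min and 0.58 (SE 0.06, adjusted p = 5e-05) at 360 min. The coding sequences of the pair are identical at 1919 of 1923 positions (99.8%) and the 250 bases before the start at 93.6%, so reads cannot be assigned to either copy with certainty. HSPA1B also shares 36.5% of its exon bases with AL671762.1 on the same strand. With both copies added up the counts came to 339, 393 and 412 CPM at 0 min, 303, 306 and 317 after 10 min, 267, 248 and 263 after 30 min, and 601, 561 and 533 after 360 min. The sum fell by 0.56 in log2 units at 30 min (adjusted p = 0.0012) and rose by 0.56 at 360 min (adjusted p = 9.5e-05).

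Both changes were also looked at within each side of the mitochondrial gap. Of the untreated libraries only replicate 1, which also had the low FOS, lay on the high side. The gap and the FOS difference therefore part the untreated libraries in the same way and cannot be told apart here. At 30 min HSPA1A lay lower by a log2 fold change of -0.59 (adjusted p = 0.0085) among the 5 libraries with low shares and -0.42 (adjusted p = 0.045) among the 7 with high shares. For HSPA1B these values were -0.59 (adjusted p = 0.0085) and -0.41 (adjusted p = 0.057). At 30 min 1 exposed library stood against 2 untreated ones on the low side and 2 against 1 on the high side, and the lone library is assumed to vary like those of the other groups. At 360 min the difference was 0.49 for HSPA1A and 0.55 for HSPA1B on the low side, with 2 libraries against 2 (adjusted p = 0.0013 and 0.001). On the high side it was 0.65 and 0.64, with 1 library against 1, so these values have no replicate check.

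HSPA8 (chr11:123057489-123063230), the constitutive HSC70, had 1740, 2010 and 1930 CPM at 0 min, 1820 in each library after 10 min, 1570, 1650 and 1650 after 30 min, and 2620, 2660 and 2480 after 360 min. All libraries at 30 min were below and all at 360 min above those at 0 min. The log2 fold change was -0.22 (SE 0.05, adjusted p = 0.051) at 30 min and 0.45 (SE 0.05, adjusted p = 4.3e-05) at 360 min. HSPA14, a ribosome-bound HSP70 relative, has 2 rows that share 460 exon bases on the same strand. The row ENSG00000187522 had 29.7, 33.9 and 34 CPM at 0 min and 41.8, 40.7 and 41.5 at 360 min and rose by 0.34 (SE 0.06, adjusted p = 0.001). The row ENSG00000284024 had 25.6, 27.8 and 26.9 CPM at 0 min and 30.6, 30 and 29.5 at 360 min, a log2 fold change of 0.16 (SE 0.05, adjusted p = 0.054). HSPA1L reached 1.06 to 2.35 CPM over all libraries and was called only against 30 min, higher by 0.56 at 360 min (SE 0.19, adjusted p = 0.047). HSPA2 lay between 0.0236 and 0.375 CPM and was not called.

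Of the HSP110 family, which exchanges the nucleotide of HSP70, HSPH1 and HSPA4L rose at 360 min. HSPH1 (chr13:31134974-31162388) stood at 169, 184 and 188 CPM at 0 min, 157, 165 and 166 after 10 min, 143, 155 and 150 after 30 min, and 248, 245 and 247 after 360 min. No library of the exposed groups fell within the untreated range. The log2 fold change was -0.28 (SE 0.04, adjusted p = 0.0085) at 30 min and 0.45 (SE 0.04, adjusted p = 2.4e-05) at 360 min. The call at 30 min was lost without 0 min replicate 3 (-0.24, adjusted p = 0.054), without 30 min replicate 1 (-0.25, adjusted p = 0.052), in the compared groups alone (-0.28, adjusted p = 0.086) and with untreated replicate 1 alone (-0.18, adjusted p = 0.3). Within the sides of the mitochondrial gap the difference at 30 min was -0.38 (adjusted p = 0.011) below it and -0.15 (adjusted p = 0.7) above it.

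HSPA4L had 56.1, 60.1 and 57.8 CPM at 0 min, 53.3 to 60.1 CPM at 10 and 30 min, and 74.9, 72.9 and 73.1 CPM at 360 min. Only the last group lay apart, with a log2 fold change of 0.34 (SE 0.05, adjusted p = 0.00049). HSPA4, the third of this family and constitutive, went from 297, 328 and 326 CPM at 0 min to 334, 329 and 331 at 360 min (log2 fold change 0.06, adjusted p = 0.4).

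Both cytosolic HSP90 genes rose at 360 min, by a smaller log2 fold change than HSPA1A, HSPA1B and HSPA8; the difference between the genes was not tested. The stress-inducible HSP90AA1 (chr14:102080738-102139699) had 1380, 1390 and 1410 CPM at 0 min, 1380, 1370 and 1420 after 10 min, 1280, 1380 and 1340 after 30 min, and 1610, 1650 and 1640 after 360 min. The first 3 groups overlapped and the last was above all of them, 17.1% over 0 min (log2 fold change 0.23, SE 0.03, adjusted p = 0.00037). HSP90AB1 (chr6:44246166-44253888) had 3470, 3630 and 3670 CPM at 0 min, 3610, 3560 and 3570 after 10 min, 3560, 3530 and 3470 after 30 min, and 3870, 3880 and 3840 after 360 min. Its libraries at 360 min also stood above the rest, by 7.67% over 0 min (log2 fold change 0.11, SE 0.03, adjusted p = 0.014). That call was lost without 360 min replicate 1 or 2, in the compared groups alone and with no filter (adjusted p up to 0.22).

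**Figure D4:**
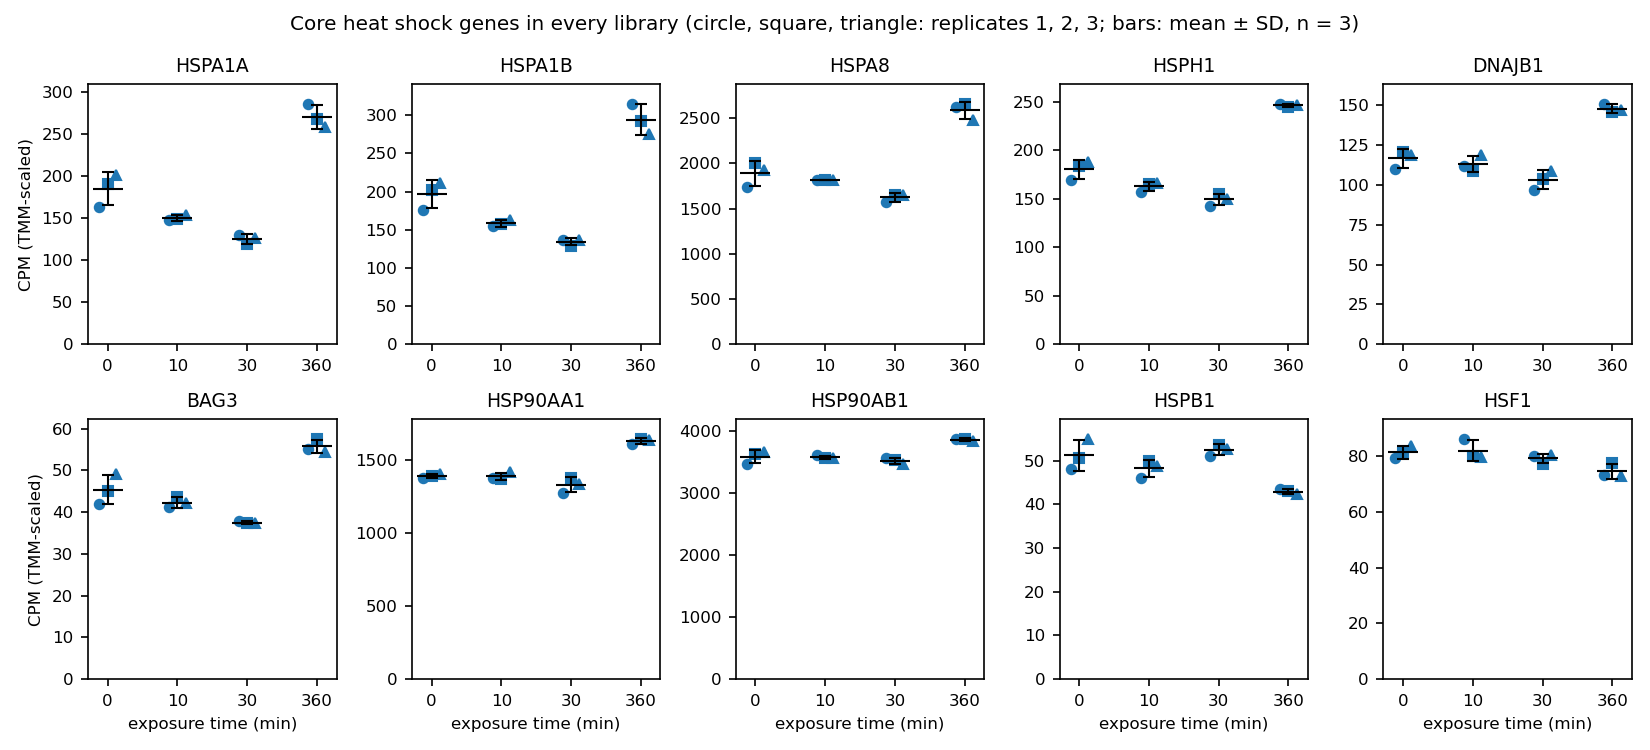
TMM-scaled CPM (y axis, from 0) of 10 core genes at each exposure time (x axis, min, not to scale). Points are single libraries, and black bars give the mean ± SD of 3. HSPA1A, HSPA1B, HSPH1 and BAG3 are lowest at 30 min and highest at 360 min, while HSPB1 and HSF1 are lowest at 360 min.

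Among the mitochondrial chaperones, HSPA9, the matrix HSP70, had 619, 655 and 648 CPM at 0 min and 711, 705 and 690 at 360 min and rose by 0.13 (SE 0.03, adjusted p = 0.012). The call was lost without 0 min replicate 1 or without 360 min replicate 1. HSPD1 and HSPE1, the chaperonin and its lid, are transcribed from a shared promoter region in opposite directions. HSPD1 had 2690, 2880 and 2890 CPM at 0 min and 2950, 2890 and 2920 at 360 min (log2 fold change 0.05, adjusted p = 0.4) and was called only against 10 min (0.12, adjusted p = 0.029), and HSPE1 lay between 425 and 561 CPM in all libraries without a call. Both models share exon bases on opposite strands.

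The small heat shock protein HSPB1 (chr7:76302544-76304295), which holds unfolded clients without ATP, went the other way. It stood at 48.1, 50.6 and 55.1 CPM at 0 min, 46.1, 49.9 and 48.9 after 10 min, 51.2, 53.7 and 52.7 after 30 min, and 43.5, 43.1 and 42.3 after 360 min. The libraries at 360 min were below all others, a log2 fold change of -0.25 (SE 0.05, adjusted p = 0.0027). With untreated replicate 1 alone at 0 min this call was lost (adjusted p = 0.095). CRYAB lay between 0.296 and 0.925 CPM and was not called.

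HSF1 encodes the activator of the inducible genes. Its mRNA stood at 79.2, 81.2 and 83.6 CPM at 0 min, 86.3, 79.9 and 79.6 after 10 min, 80, 77.2 and 80.3 after 30 min, and 73.4, 77.7 and 72.8 after 360 min. The last group lay below the untreated one, and HSF1 fell by 0.13 (SE 0.04, adjusted p = 0.043). Of 18 alternative settings 9 lost this call, among them the omission of 0 min replicate 2 or 3 and of 360 min replicate 1 or 3, with adjusted p up to 0.39. The mRNA level carries no information on the trimerisation of the protein. HSF2, a related factor, was between 21.1 and 24.6 CPM in all libraries and was not called in any comparison.

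BAG3 (chr10:119651370-119677819) had 42, 45 and 49 CPM at 0 min, 41.1, 43.6 and 42.1 after 10 min, 37.8, 37.3 and 37.4 after 30 min, and 55.1, 57.6 and 54.5 after 360 min. The groups at 30 and 360 min did not overlap with 0 min. The log2 fold change was -0.27 (SE 0.05, adjusted p = 0.022) at 30 min and 0.30 (SE 0.05, adjusted p = 0.0012) at 360 min. The call at 30 min was lost in 8 of 18 alternative settings, among them the omission of 0 min replicate 2 or 3 or of any 30 min library, and that at 360 min in 0 of 18. With one of these libraries left out the log2 fold change at 30 min was -0.29 to -0.22, and with untreated replicate 1 alone it was -0.16 (adjusted p = 0.4). Within the sides of the mitochondrial gap the difference at 30 min was -0.31 (adjusted p = 0.15) and -0.17 (adjusted p = 0.72). The nucleotide exchange factor gene BAG1 and BAG2, an inhibitor of the ubiquitin ligase CHIP, were not called against 0 min at any time, nor was BAG5. BAG5 was higher at 360 than at 30 min by 0.18 (SE 0.06, adjusted p = 0.036). BAG2 shares 42.7% of its exon bases with RAB23 on the opposite strand.

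Of the 10 J-domain genes, 6 rose at 360 min and 0 fell, against 8.89% higher and 9.19% lower of all genes. DNAJB1 (chr19:14514770-14529770), the inducible HSP40, had 110, 121 and 119 CPM at 0 min, 112, 109 and 119 after 10 min, 97, 104 and 109 after 30 min, and 151, 146 and 147 after 360 min. Its values at 30 min lay just below the untreated ones (log2 fold change -0.18, SE 0.05, adjusted p = 0.14) and those at 360 min well above (0.34, SE 0.05, adjusted p = 0.00031). DNAJB4 showed the largest ratio among the rows called against 0 min, at a low level. It had 7.55, 8.79 and 10.1 CPM at 0 min, 6.13, 7.66 and 8 after 10 min, 6.64, 7.42 and 7.24 after 30 min, and 13.2, 14.7 and 12.3 after 360 min, a log2 fold change of 0.60 (SE 0.12, adjusted p = 0.0039). DNAJA1, a partner of HSC70, had 275, 293 and 291 CPM at 0 min, 265, 263 and 263 after 10 min, 256, 266 and 245 after 30 min, and 374, 370 and 364 after 360 min, and rose by 0.37 (SE 0.04, adjusted p = 3e-05).

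The other J-domain calls were smaller. DNAJC7, which has TPR domains and binds HSP70 and HSP90, rose from 81.2, 83 and 88.5 to 94.4, 97 and 90.9 CPM (log2 fold change 0.16, adjusted p = 0.019). DNAJC2, a ribosome-associated partner of HSPA14, rose from 50.5, 50.9 and 55.6 to 57, 59 and 61 CPM (0.17, adjusted p = 0.034). DNAJB6, which suppresses aggregation of polyglutamine proteins, rose from 65.7, 72.1 and 75.2 to 81.3, 77.6 and 77.5 CPM (0.15, adjusted p = 0.034). The calls of DNAJC7, DNAJC2 and DNAJB6 held in 13, 12 and 9 of 18 alternative settings, and each was lost without 0 min replicate 1, 0 min replicate 2 or 360 min replicate 2. DNAJA2, DNAJB2, DNAJA4 and DNAJB5 were not called against 0 min, and DNAJA4 and DNAJB5 reached at most 0.563 and 0.264 CPM.

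Of the HSP90 co-chaperones, CHORDC1 and STIP1 rose at 360 min. CHORDC1 had 55.7, 56.9 and 61.5 CPM at 0 min, 53.3, 54.2 and 55.4 after 10 min, 47.6, 52.6 and 47.3 after 30 min, and 82.8, 80.3 and 76.1 after 360 min. It followed the order of the inducible genes, with no overlap with 0 min at any time. The log2 fold change was -0.24 (SE 0.05, adjusted p = 0.055) at 30 min and 0.46 (SE 0.05, adjusted p = 5.9e-05) at 360 min. STIP1, or HOP, which joins HSP70 to HSP90, went from 370, 382 and 371 to 396, 403 and 408 CPM (0.10, SE 0.03, adjusted p = 0.043), a call that held in 4 of 18 alternative settings and in 0 of the 6 omissions of a library.

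The remaining HSP90 co-chaperones were not called against 0 min. AHSA1, which stimulates the ATPase of HSP90, had a log2 fold change of 0.00 at 360 min against 0 min (adjusted p = 0.97) and was higher than at 30 min by 0.16 (SE 0.04, adjusted p = 0.0075). PTGES3, or p23, was higher at 360 than at 30 min by 0.19 (SE 0.06, adjusted p = 0.037). CDC37, the adaptor for kinases, ST13 and the immunophilin FKBP4 were not called in any comparison. STUB1, the ubiquitin ligase CHIP that acts on chaperone clients, was higher at 360 than at 30 min by 0.14 (SE 0.04, adjusted p = 0.017), but 42.4% of its exon bases overlap with JMJD8 on the opposite strand. The polyubiquitin gene UBB had 547, 576 and 565 CPM at 0 min and 597, 566 and 572 at 360 min (log2 fold change 0.04, adjusted p = 0.56), and was called only against 10 min (0.12, adjusted p = 0.041).

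Genes with and without a heat shock element in the searched windows were found among those that rose. A gene was counted as having an element if any of its windows held one. Of the 17 matched genes with a 2-unit or 3-unit element, 11 rose at 360 min, 1 fell (HSPB1), 4 were not called and 1 was not tested (all genes: 8.89% higher, 9.19% lower). All but HSPD1 of the 6 genes with a 3-unit element rose. Of the 19 matched genes without one, 6 rose and 13 were not called. HSPH1 and BAG3 are in the latter set; no match says only that these letters are not in the window searched. The difference between both sets was not tested.

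Other proteostasis genes were followed in lists beside the group, for which the share of all genes called at 360 min was again 8.89% higher and 9.19% lower. Of the 24 other J-domain genes tested, 9 rose at 360 min and 2 fell. DNAJB9, a partner of BiP in the endoplasmic reticulum, had 17.3, 20.1 and 23.2 CPM at 0 min and 31.1, 29.1 and 27 at 360 min and rose by 0.52 (SE 0.10, adjusted p = 0.0029). Among 15 chaperones of the endoplasmic reticulum 5 rose at 360 min and 0 fell, among them the lectin chaperone CANX (0.24, SE 0.03, adjusted p = 0.00049), and at 30 min 0 were called. The median log2 fold changes of these lists at 360 min were 0.12 and 0.10, against 0 over all genes. The lists overlap, so their counts are not independent of each other. DNAJB9, for example, is counted among both the J-domain genes and the chaperones of the endoplasmic reticulum. The mitochondrial and the other HSP70 lists below also share genes with these lists.

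Of the 8 subunits of the cytosolic chaperonin TRiC, which folds actin and tubulin, 3 rose at 360 min (TCP1 by 0.17, SE 0.04, adjusted p = 0.0059), and of the 6 prefoldin subunits 0 were called. Of 17 other HSP90 co-chaperones 2 rose and 3 fell, including FKBP5, a target of the glucocorticoid receptor, which fell from 104, 111 and 110 to 89, 85.2 and 94 CPM (log2 fold change -0.27, SE 0.04, adjusted p = 0.00054). The mitochondrial list had 2 of 10 higher and 0 lower, and the other HSP70 and nucleotide exchange genes 2 of 11 higher and 0 lower. These shares were near the 18.1% of all genes called in either direction, while 8.89% of all genes were called higher. Of the 3 tested small heat shock genes outside the group 0 were called.

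In the list of other HSF1 network genes, JMJD6, a 2-oxoglutarate oxygenase gene, was the member called at 30 min. It had 42.9, 47.9 and 46.1 CPM at 0 min, 45.1, 39.7 and 43.7 after 10 min, 37.1, 35.3 and 34.4 after 30 min, and 56.2, 56.3 and 54.4 after 360 min. It fell by 0.36 at 30 min (SE 0.05, adjusted p = 0.0055) and rose by 0.28 at 360 min (SE 0.05, adjusted p = 0.0022), without overlap with 0 min at either time. HSPA6, the strictly inducible HSP70, was not tested, at 0 to 0.179 CPM in all libraries.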

How the data were processed

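Poly(A) RNA of 12 HepG2 libraries (4 groups of 3) was captured on oligo-dT beads, per the labels' protocols. The authors deposited whole-number read counts per gene. HISAT2, DESeq2 and GRCh38 are named in the submitters' processing notes; no source used here gives the counting program, annotation release or strand setting, so counts of overlapping genes are uncertain. Every column was matched to a sample by its title.

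The deposited counts went unchanged into edgeR 4.0.16 (R 4.3.3; filterByExpr by group, TMM, 1 coefficient per group, all 12 libraries, 8 residual degrees of freedom, quasi-likelihood F test, two-sided). P-values were Benjamini-Hochberg adjusted over all 17779 genes and a gene was called under 0.05; all adjusted p-values in the text come from this fit unless another setting is named. The standard error is the absolute log2 fold change divided by the square root of F. The biological coefficient of variation was 9.72%. A count of 3 equals 0.0354 to 0.102 CPM, and such floors cover counting error only. The fit was tested on simulated data.

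Alternatives were DESeq2 1.42.0, limma voom (limma 3.58.1), RLE and total-count scaling, no filter and a stricter one (100 counts in all and 1 CPM in 3 libraries as minimum), the compared groups alone, a replicate block, a term for the mitochondrial share (above or below 3%), thinning, HSPA1A and HSPA1B summed, omission of each library and untreated replicate 1 alone. The libraries on either side of the mitochondrial gap alone were added after seeing the data. Positions, exon lengths and overlaps come from GENCODE 29 (GRCh38), promoters from RefSeq (GRCh38.p14). Values in every library are given for 10 core members and for up to 12 other members called against 0 min, and up to 3 genes with the smallest p are named per other list. Members, lists and alternatives were chosen with earlier results of these data known. Replicate pairs of a group differed by more than sampling noise (chi-square per degree of freedom 6.36 to 34.2).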

Additional observations from a re-analysis of the deposited data

Results flagged for a closer look

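Opposite calls against the same untreated libraries were seen in 4 of the 42 tested rows of the group, which fell at 30 min and rose at 360 min. Since these rows were picked by those calls, the direction of their difference between 30 and 360 min is fixed by the choice, and it is given as a description. Of all genes, 0.585% were called lower at 30 min and 8.89% higher at 360 min against 0 min. The share of all genes with both calls was not counted. From 30 to 360 min the log2 fold change was 1.12 for HSPA1A, 1.14 for HSPA1B, 0.73 for HSPH1 and 0.57 for BAG3, with all 3 libraries at 360 min above all 3 at 30 min. The calls of HSPH1 and BAG3 at 30 min were lost without some single libraries, with log2 fold changes of -0.25 to -0.24 and -0.29 to -0.22, and reads of HSPA1A and HSPA1B cannot be told apart with certainty.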

How the results depend on the processing

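Counts of called rows (0, 4 and 20 at 10, 30 and 360 min against 0 min; 0, 25 and 27 for 30 against 10, 360 against 30 and 360 against 10 min; 24 over the 4 times) moved by over 1.5 times in these settings. DESeq2 called 2 at 10 min, 9 at 30 min and 3 for 30 against 10 min. The compared groups alone gave 2 at 30 min and 2 for 30 against 10 min, where the mitochondrial term also gave 2. Untreated replicate 1 alone gave 2 at 30 min. The libraries above the mitochondrial gap alone, which are fewer, gave 1, 7, 11 and 12 at 30 and 360 min, for 360 against 30 and for 360 against 10 min; those below it gave 5, 16 and 21 for the first 3 of these. Omitting 1 library gave 0 to 2 at 10 min, 2 to 7 at 30 min, 14 to 19 at 360 min, 0 to 0 for 30 against 10 min, 20 to 25 for 360 against 30 min, 17 to 23 for 360 against 10 min and 18 to 26 over the 4 times. For 30 min the lows came without 0 min replicate 3 or 30 min replicate 1 and the high without 0 min replicate 1. The cause was not tested. The share of all genes called in each of these settings is not given here, so the counts are not set against it.

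Among the values of called rows and of the 10 core genes against 0 min, those that changed sign were uncalled in the main fit. There BAG3 at 10 min stood at -0.10 (edgeR adjusted p = 0.48) and HSPB1 at 10 min at -0.09 (edgeR adjusted p = 0.54). Where the sign changed, the values were near 0. Uncalled values of other genes were not followed in this way. DNAJA4 at 10 min, for example, went from 0.18 to -0.32 with untreated replicate 1 alone. At 10 min with untreated replicate 1 alone, and likewise above the mitochondrial gap, BAG3 stood at 0.01, HSPA8 at 0.07, HSP90AA1 at 0.01, DNAJB1 at 0.04, HSP90AB1 at 0.04 and HSPB1 at 0.01. HSP90AB1 at 10 min was 0.02 with the mitochondrial term and 0.00 to 0.01 with a library omitted, and HSP90AA1 0.00 to 0.01. HSF1 at 10 min was -0.01 with total-count scaling, 0.00 with no filter and -0.03 to 0.03 with a library omitted. At 30 min HSP90AB1 was 0.02 with untreated replicate 1 alone and 0.01 above the gap, and HSPB1 was -0.01 to 0.09 with a library omitted and -0.04 below the gap.

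Against 0 min, 12 of the 20 calls at 360 min and 2 of the 4 at 30 min held in every planned setting. The 2 at 30 min were HSPA1A and HSPA1B, whose reads cannot be told apart with certainty. No strong pairing by replicate number was seen: 18 same-number pairs had deviations correlated at -0.05 to 0.1 (median 0.03, 0 over 0.1). For the 36 pairs with other numbers this was -0.12 to 0.09 (median -0.02). Whether the numbers pair cultures is not given by the labels and cannot be settled by these correlations. The replicate block called 0, 4 and 19 against 0 min, 0, 26 and 26 for the other comparisons in the order above, and 23 over the 4 times. Depth limits HSPA2, HSPB8, DNAJA4 and DNAJB5, which are near the floor of 3 counts.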
